A study of Mus musculus with 8 samples.

Results

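The let-7 and miR-98 family of microRNAs (miRNAs) was followed in mouse LSK cells. These bone marrow cells, Lin-cKit+Sca1+ by surface staining, include the stem cells and early progenitors of blood. Members were all probes whose name in the tables, without copy, arm or form, was mmu-let-7a, mmu-let-7b, mmu-let-7c, mmu-let-7d, mmu-let-7e, mmu-let-7f, mmu-let-7g, mmu-let-7i or mmu-mir-98. These 9 miRNAs were read by 17 of the 521 mature probes, which carry 13 of the 433 mature names, and by 9 of the 300 precursor probes, which carry 9 of the 274 precursor names. The precursor probes covered 6 of the 9 miRNAs, all but let-7d, let-7g and let-7i.

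The 4 Tsc1 cKO mice (Tsc1f/f, Mx1-Cre+) and the 4 Ctrl littermates (Tsc1f/f, Mx1-Cre-) were 10-week-old C57BL/6 females, and both groups carried the floxed Tsc1 alleles. All 8 mice received 400 µg of pIpC (2 mg/ml) in 7 intraperitoneal injections, and cells were sorted 10 days later, with 1 array per mouse. Mx1-Cre responds to interferon and is known to be active outside blood cells too, so the model is not specific to LSK cells. The design text also speaks of alleles for inactivating Raptor, but the genotype field of each sample gives Tsc1 only, which is used here, and the deletion itself was not analysed.

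let-7 miRNAs are cut from a primary transcript by Drosha and from the resulting hairpin by Dicer, and the guide strand then represses messenger RNAs that pair with its seed, bases 2 to 8. Many of their known targets, such as Hmga2, Myc and the Ras genes, promote growth. LIN28 proteins hold back the maturation of let-7 hairpins, and in mouse blood Lin28b is known for its high level in fetal stem cells, where mature let-7 is low, and its low level in adult ones. TSC1 restrains the growth-promoting kinase complex mTORC1, whose role in making miRNAs is the subject the series names.

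The guide strands below are shown because they define the family and because their closeness limits how far probes can tell members apart. They come from RefSeq (GRCm38.p6), are written 5′ to 3′, and have the seed in capitals.
let-7a-5p: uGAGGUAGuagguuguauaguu
let-7b-5p: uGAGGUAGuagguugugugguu
let-7c-5p: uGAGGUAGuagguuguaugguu
let-7d-5p: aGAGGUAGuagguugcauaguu
let-7e-5p: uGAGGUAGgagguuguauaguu
let-7f-5p: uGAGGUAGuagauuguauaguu
let-7g-5p: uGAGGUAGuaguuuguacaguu
let-7i-5p: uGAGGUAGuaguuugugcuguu
miR-98-5p: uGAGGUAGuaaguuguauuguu

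All 9 guide strands had the seed GAGGUAG and 22 bases. Counted from 1 at the 5′ end, let-7c differed from let-7a by A19G, let-7e by U9G and let-7f by G12A, each a single change. let-7b (A17G and A19G), let-7d (U1A and U16C), let-7g (G12U and U18C) and miR-98 (G11A and A19U) each differed from let-7a by 2 bases. let-7i was the most distant from let-7a, with 4 changes (G12U, A17G, U18C and A19U), and it stood 2 bases from let-7g. Probe sequences were not used here, so reading of one member by a probe named for another could not be measured. The passenger strand of let-7d, named let-7d*-3p on the array, has another seed and is shown to set it apart from the guide strands.
let-7d-3p: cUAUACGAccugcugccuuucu

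The family is spread over several loci, and let-7a, let-7c and let-7f come from 2 genomic copies each in these tables. let-7a-1, let-7f-1 and let-7d lie together on chromosome 13, let-7c-2 and let-7b on chromosome 15, and let-7f-2 and miR-98 on chromosome X within the gene Huwe1. let-7a-2 on chromosome 9 lies within 60 kb of Mir100 and Mir125b-1, let-7c-1 on chromosome 16 within 60 kb of Mir99a and Mir125b-2, and let-7e on chromosome 17 within 60 kb of Mir99b and Mir125a. let-7g lies within the span of Wdr82, and let-7i on chromosome 10 has no other annotated miRNA gene within 60 kb. The hairpins of the let-7a and let-7c copies, shown because the array names its probes by copy, have the guide strand in capitals (RefSeq, GRCm38.p6).
let-7a-1 (chr13:48538179-48538272, minus strand): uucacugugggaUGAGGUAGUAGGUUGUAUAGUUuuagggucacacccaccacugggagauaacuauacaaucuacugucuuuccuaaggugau
let-7a-2 (chr9:41536716-41536811, plus strand): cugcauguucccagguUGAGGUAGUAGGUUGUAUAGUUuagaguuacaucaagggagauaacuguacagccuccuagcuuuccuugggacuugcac
let-7c-1 (chr16:77599657-77599750, plus strand): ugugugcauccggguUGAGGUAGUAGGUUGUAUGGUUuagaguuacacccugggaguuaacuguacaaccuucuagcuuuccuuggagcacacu
let-7c-2 (chr15:85706603-85706697, plus strand): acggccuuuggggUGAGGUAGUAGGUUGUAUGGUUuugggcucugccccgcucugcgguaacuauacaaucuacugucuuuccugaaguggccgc

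The mature strand is identical in both copies, so a probe that reads it alone cannot tell the copies apart. Over the whole hairpin, let-7a-1 and let-7a-2 shared 71 bases in a global alignment (75.5% of the shorter one), and let-7c-1 and let-7c-2 shared 68 (72.3%). let-7c-1 and let-7a-2 were closer to each other than either copy pair, with 80 shared bases (85.1%).

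Array levels are given once here. Total mature intensity per array lay between 27732801.5 and 58832926.5 in Tsc1 cKO and between 42134011 and 63876718.5 in Ctrl. Many probes of an array shared one low level, taken as its background, which lay between 14.56 and 15.02 on the log2 scale. A name is called bright where its mean over the 8 arrays was more than 1 log2 unit above that level, which held for 94 mature and 34 precursor names. The first 2 samples of each genotype had higher background levels than the last 2, and Tsc1 cKO 4 had the fewest bright mature names, 74 against 93 to 112 on the other arrays. The description names scanner 4001B for Tsc1 cKO 3, 4002B for Tsc1 cKO 4 and 4000B for the other arrays. The arrays labelled 4000B thus set Tsc1 cKO 1 and 2 against Ctrl 1 to 4. Values on 4000B alone below therefore mix the scanner label with the shift between the first and last samples. Of 9 haematopoietic marker names 6 were bright, and of the liver (1), muscle (9), neural (11) and erythroid (3) marker names none was. Of the 5 stromal or endothelial names 1 was bright. The summed intensity of these 5 was 109567 to 242743 in Tsc1 cKO and 184151 to 301622 in Ctrl, and that of the erythroid names was 81867 to 216894 in Tsc1 cKO and 62942 to 120818 in Ctrl. The part of these shifts in the results below was not tested.

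Mature let-7 was compared between the genotypes to ask whether loss of Tsc1 goes with a different level of the finished miRNAs. Of the 13 mature names, 12 had a lower mean in Tsc1 cKO than in Ctrl, with a median log2 difference of -0.83 and a range of -1.03 to 0.12. Among all 433 mature names 64.9% had a negative difference, and their median was -0.04. Bright names are the closer comparison. Of the 86 bright names outside the family 68 were negative, with a median of -0.22. The 8 bright family names were all negative, with a median of -0.92. Of the 13 names 8 were bright, among them let-7g, which averaged 0.87 log2 units above background in Tsc1 cKO and 1.34 in Ctrl. No member passed limma's test at an adjusted p under 0.05, nor did any of the 433 names (0% called), and the lowest adjusted p of the family was 0.605. At an unadjusted p under 0.05 limma gave 5 of the 13 names, all lower in Tsc1 cKO: both let-7a copies, both let-7c copies and let-7d*-3p. The copies of let-7a share an identical mature strand, as do those of let-7c, so these 5 names are not 5 separate miRNAs. The 13 names stand for 9 miRNAs. Of all mature names 3.93% were lower at this level and 0.462% higher. Of the 86 bright names outside the family 4 reached it in either direction, against 4 of the 8 bright family names. In sorted bulk RNA, fewer cells that hold a miRNA and less of it per cell cannot be told apart.

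let-7c-1 is a copy that lies beside the genes of miR-99a and miR-125b-2. The mature probe named for this copy had log2 intensities of 17.54, 17.23, 17.50 and 16.58 in Tsc1 cKO 1 to 4. In Ctrl 1 to 4 it stood at 18.12, 18.82, 17.85 and 18.08. The highest Tsc1 cKO mouse lay below the lowest Ctrl mouse. The log2 difference was -1.003 (SE 0.29), 2.00-fold lower in Tsc1 cKO, with an adjusted p of 0.605 by limma. The differences were -1.08 in samples 1-2 and -0.92 in samples 3-4.

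The mature probe named let-7c-2, for the copy beside let-7b, stood at 17.61, 17.42, 17.22 and 16.11 in Tsc1 cKO 1 to 4. In Ctrl 1 to 4 it stood at 18.50, 18.91, 17.56 and 17.51. The groups overlapped, since Tsc1 cKO 1 lay just above Ctrl 3 and Ctrl 4. Its log2 difference was -1.03 (SE 0.41, adjusted p = 0.902 by limma), or -0.61 on the arrays labelled with scanner 4000B alone.

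The mature probe named let-7a-1, for the copy on chromosome 13, stood at 17.53, 16.64, 17.66 and 16.30 in Tsc1 cKO 1 to 4. In Ctrl 1 to 4 it stood at 18.13, 18.42, 17.97 and 17.65. Of the Tsc1 cKO mice, the third alone reached the level of the lowest Ctrl mouse, Ctrl 4. The difference was -1.01 (SE 0.33, adjusted p = 0.657 by limma). let-7a-2 stood at 18.49, 17.49, 18.03 and 16.51 in Tsc1 cKO 1 to 4, and at 18.89, 19.08, 18.63 and 17.99 in Ctrl 1 to 4. Here Tsc1 cKO 1 and 3 lay above Ctrl 4, and the difference was -1.01 (SE 0.41, adjusted p = 0.902 by limma), or -0.64 without Tsc1 cKO 4 and -0.66 on scanner 4000B alone. After quantile normalization the differences of let-7a-1, let-7a-2, let-7c-1 and let-7c-2 were -0.66, -0.67, -0.61 and -0.68.

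let-7b differs from let-7c by 1 base. Its log2 intensity was 18.02, 17.82, 17.35 and 16.44 in Tsc1 cKO 1 to 4, and 18.58, 18.90, 17.85 and 17.64 in Ctrl 1 to 4. The groups overlapped, with Tsc1 cKO 1 above Ctrl 3 and Ctrl 4, and Tsc1 cKO 2 above Ctrl 4. The difference was -0.83 (SE 0.39, adjusted p = 0.902 by limma), with -0.82 in samples 1-2 and -0.85 in samples 3-4. It was -0.51 without Tsc1 cKO 4, -0.40 after quantile normalization and -0.32 on the arrays labelled with scanner 4000B alone.

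let-7d was read on both arms, by 3 probes each. The guide arm, let-7d-5p, had a mean log2 intensity over its probes of 17.37, 17.06, 16.90 and 15.93 in Tsc1 cKO 1 to 4, and of 17.65, 17.90, 17.33 and 17.07 in Ctrl 1 to 4. The groups overlapped, and Tsc1 cKO 4 was the lowest of the 8 mice. Its difference was -0.67 (SE 0.32, adjusted p = 0.902 by limma), and the 3 probes gave -0.68, -0.62 and -0.72. It was -0.38 without Tsc1 cKO 4, -0.37 after quantile normalization and -0.27 on scanner 4000B alone.

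The passenger arm, let-7d*-3p, stood at 14.61, 14.77, 15.52 and 14.93 in Tsc1 cKO 1 to 4, and at 15.87, 15.78, 16.04 and 15.53 in Ctrl 1 to 4. The groups did not overlap, but Tsc1 cKO 3 and Ctrl 4 were nearly level. The difference was -0.85 (SE 0.24, adjusted p = 0.605 by limma), and the 3 probes gave -0.57, -0.83 and -1.15. It was -1.14 in samples 1-2 and -0.56 in samples 3-4. This arm lay 0.16 log2 units above background in Tsc1 cKO and 0.99 in Ctrl, and background in the signal limits the size of its difference. Together with let-7c-1 it made 2 of 13 names whose groups did not overlap, both lower in Tsc1 cKO, against 0.924% of all mature names. This count is on the values as deposited. Tsc1 cKO 3 stood at 15.52 on an array background of 14.625, Ctrl 1 at 15.87 on 15.020 and Ctrl 2 at 15.78 on 15.004. Relative to background, Tsc1 cKO 3 thus lay above both, and the let-7d*-3p groups overlapped. Among bright names, the groups did not overlap for 2 of the 86 outside the family and 1 of the 8 in it.

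let-7g and let-7i share the changes G12U and U18C from let-7a. let-7i had log2 intensities of 17.37, 17.27, 16.78 and 16.34 in Tsc1 cKO 1 to 4, and of 17.38, 17.65, 17.49 and 16.95 in Ctrl 1 to 4. The first Tsc1 cKO and first Ctrl mouse were level, and the difference over the groups was -0.43 (SE 0.27, adjusted p = 1.0 by limma). It was -0.23 without Tsc1 cKO 4, -0.076 after quantile normalization and -0.048 on scanner 4000B alone. let-7g stood at 16.50, 16.48, 15.29 and 14.41 in Tsc1 cKO 1 to 4, and at 16.38, 16.73, 15.48 and 16.06 in Ctrl 1 to 4. Its difference of -0.49 (SE 0.47, adjusted p = 1.0 by limma) was -0.07 in samples 1-2 and -0.92 in samples 3-4, and it was -0.07 without Tsc1 cKO 4, -0.30 without Ctrl 2, -0.77 without Tsc1 cKO 1, -0.76 without Tsc1 cKO 2 and 0.32 on scanner 4000B alone. Whether let-7g and let-7i differed less between genotypes than let-7a or let-7c was not tested.

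The remaining names, let-7e, both let-7f copies and miR-98, were not bright. let-7e, which lies beside the genes of miR-99b and miR-125a, had a mean of 15.38 ± 0.98 in Tsc1 cKO and 16.20 ± 0.57 in Ctrl (log2 intensity, SD, n = 4 each). let-7f-1 had 15.28 ± 0.83 in Tsc1 cKO and 15.93 ± 0.41 in Ctrl, and let-7f-2 had 15.18 ± 0.76 in Tsc1 cKO and 16.01 ± 0.68 in Ctrl. In all 3 of these names Tsc1 cKO 4 lay below its background level, at 14.02 to 14.09. Without that mouse the log2 differences of let-7e, let-7f-1 and let-7f-2 were -0.36, -0.24 and -0.46, against -0.81, -0.65 and -0.83 with all mice. miR-98 was bright on 0 of the 8 arrays, with 14.60 ± 0.60 in Tsc1 cKO and 14.48 ± 0.70 in Ctrl, so its difference of 0.12 (SE 0.39) says little on this miRNA.

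**Figure D1:**
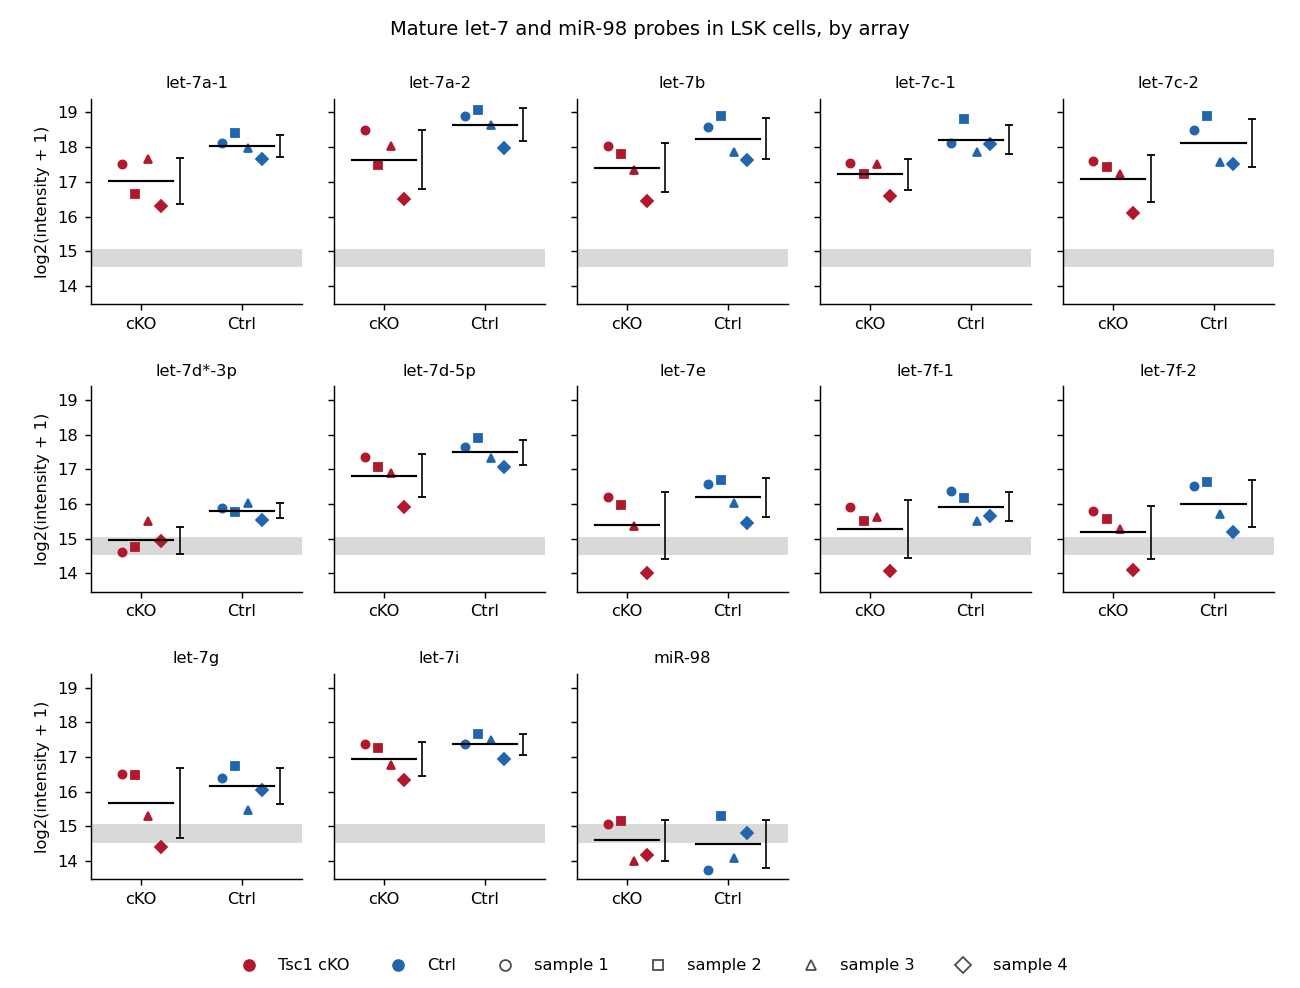
Each panel shows 1 mature name, with log2(intensity + 1) on the vertical axis and 1 point per array, Tsc1 cKO left of Ctrl; marker shape gives the sample number, horizontal lines are means, bars are SD (n = 4 each) and the grey band is the range of the background level over the 8 arrays. On the plotted values the let-7c-1 and let-7d*-3p groups do not overlap, though relative to background those of let-7d*-3p do. Tsc1 cKO 4 (diamond) is the lowest array for most names, and miR-98 is bright on no array.

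The tallies above depended on single mice. Without Tsc1 cKO 4 the median log2 difference of the 13 names was -0.46, with 12 still negative, and without Ctrl 2 it was -0.63. The number of family names at an unadjusted p under 0.05 by limma was 3 without Tsc1 cKO 4, without Ctrl 1 or without Ctrl 2, and 9 without Tsc1 cKO 1 and 8 without Ctrl 4. On the arrays labelled with scanner 4000B alone (2 Tsc1 cKO and 4 Ctrl) the median was -0.32, 11 names were negative, and the median of all mature names was 0.19. After quantile normalization the median of the family was -0.61 with 12 negative names.

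Because Tsc1 cKO 4 was dim for many miRNAs, the family was also set against the other bright miRNAs of the same array. The mean of the 8 bright family names minus the mean of the 86 other bright names was -0.16, -0.64, -0.20 and -0.38 in Tsc1 cKO 1 to 4, and 0.32, 0.34, 0.03 and 0.22 in Ctrl 1 to 4 (log2 units). The groups did not overlap, and Tsc1 cKO 2 was the lowest of its group. How often other sets of bright names separate in this way was not computed. The 8 names include both copy names of let-7a and of let-7c. They also include let-7g, which passed the bright limit through Ctrl (1.34 log2 units above background, against 0.87 in Tsc1 cKO). The group means of this measure were -0.35 ± 0.22 in Tsc1 cKO and 0.23 ± 0.14 in Ctrl (SD, n = 4 each). No p is given, because the members were chosen with earlier results of these data known. In samples 1 and 2 the other bright names stood at 17.72 and 17.81 in Tsc1 cKO and 17.63 and 17.96 in Ctrl. In the same samples the family stood at 17.55 and 17.18 in Tsc1 cKO and 17.95 and 18.30 in Ctrl. In samples 3 and 4 both sets were lower in Tsc1 cKO: the other bright names stood at 17.30 and 16.46 in Tsc1 cKO and 17.49 and 17.15 in Ctrl, and the family at 17.09 and 16.08 in Tsc1 cKO and 17.52 and 17.37 in Ctrl. The part of array brightness in the family's difference was not tested.

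**Figure D2:**
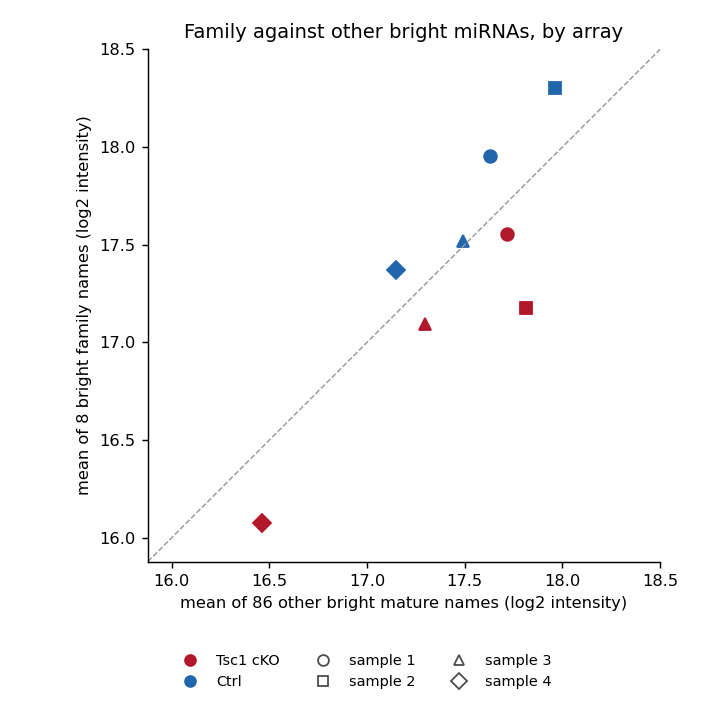
Each point is 1 array, with the mean log2 intensity of the 86 bright mature names outside the family on the horizontal axis and that of the 8 bright family names on the vertical axis; the dashed line marks equal values and marker shape gives the sample number. The 4 Tsc1 cKO arrays lie below the line by 0.16 to 0.64 log2 units and the 4 Ctrl arrays above it by 0.03 to 0.34.

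Where a probe's intensity includes the background, ratios are shrunk. Whether the deposited values still include it is not stated, and it is assumed here. With the background level of each array subtracted, a setting chosen after seeing the data, 7 mature family names were positive on all 8 arrays. let-7c-1 was then 2.24-fold lower in Tsc1 cKO, let-7c-2 2.34-fold, let-7a-1 2.35-fold, let-7a-2 2.23-fold, let-7b 1.95-fold, let-7d-5p 1.82-fold and let-7i 1.45-fold lower. Without subtraction the same names ranged from 1.35-fold (let-7i) to 2.04-fold lower (let-7c-2).

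Copies and arms of one miRNA were compared within each array, to ask whether the genotype difference depended on which of 2 probes read it. In log2 units, let-7c-1 minus let-7c-2 was 0.12 ± 0.31 in Tsc1 cKO and 0.10 ± 0.42 in Ctrl (SD, n = 4 each). let-7a-1 minus let-7a-2 was -0.60 ± 0.36 in Tsc1 cKO and -0.61 ± 0.18 in Ctrl. let-7f-1 minus let-7f-2 was 0.10 ± 0.18 in Tsc1 cKO and -0.08 ± 0.39 in Ctrl. In the exact permutation tests over 70 assignments of the mice (2-sided, smallest possible p 0.0286), these group differences of 0.029, 0.0041 and 0.18 had p = 0.914, 1.0 and 0.429, and adjusted p = 1.0 over the 4 pairs. No difference between the probes of a pair was detectable, which does not show that the copies respond alike. Their mature strands are identical, so probes that read these alone cannot tell how each copy responds. Each pair's value also ranged over 0.75 to 0.95 log2 units among the arrays.

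The arms of let-7d varied more. let-7d*-3p minus let-7d-5p was -2.76, -2.29, -1.38 and -0.998 in Tsc1 cKO 1 to 4, and -1.77, -2.12, -1.29 and -1.54 in Ctrl 1 to 4. In Tsc1 cKO 1 and 2 the passenger arm, at 14.61 and 14.77, lay below the array background of 14.98 and 15.02, so these values do not measure its balance with the guide arm. The group difference was -0.18, with an exact permutation p of 0.714 (adjusted p = 1.0 over the 4 pairs).

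Precursor probes were compared to ask whether the hairpins differed between genotypes. None of the 9 precursor names was bright, and 8 of them stayed within 0.5 log2 units of the background level on all 8 arrays. Their mean over the 9 names, relative to background, was -0.06, -0.03, -0.05 and -0.05 in Tsc1 cKO 1 to 4, and 0.0080, -0.17, -0.04 and -0.06 in Ctrl 1 to 4. The mean of the family precursors therefore stood clearly above background on no array, in either genotype. The log2 differences ranged from -0.15 (let-7e) to 0.22 (let-7b) with a median of -0.02, 7 of 9 negative against 59.1% of all precursor names. Relative to the background level of each array, 3 of 9 were negative. At background these probes cannot tell whether the hairpins differed between genotypes. No precursor name of the family or of the table passed limma's test (0% called, lowest adjusted p = 0.999), and limma gave 0 family names at an unadjusted p under 0.05, against 2.55% of all 274 names, all lower. No family precursor had groups that did not overlap, against 1.09% of all names.

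let-7b was the exception to the flat precursor values. Its precursor probe stood at 14.46, 15.21, 14.71 and 14.59 in Tsc1 cKO 1 to 4, and at 15.19, 13.45, 14.79 and 14.68 in Ctrl 1 to 4. Ctrl 2 stood at -1.56 log2 units relative to its background. Without Ctrl 2 the difference was -0.14, against 0.22 with all mice.

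**Figure D3:**
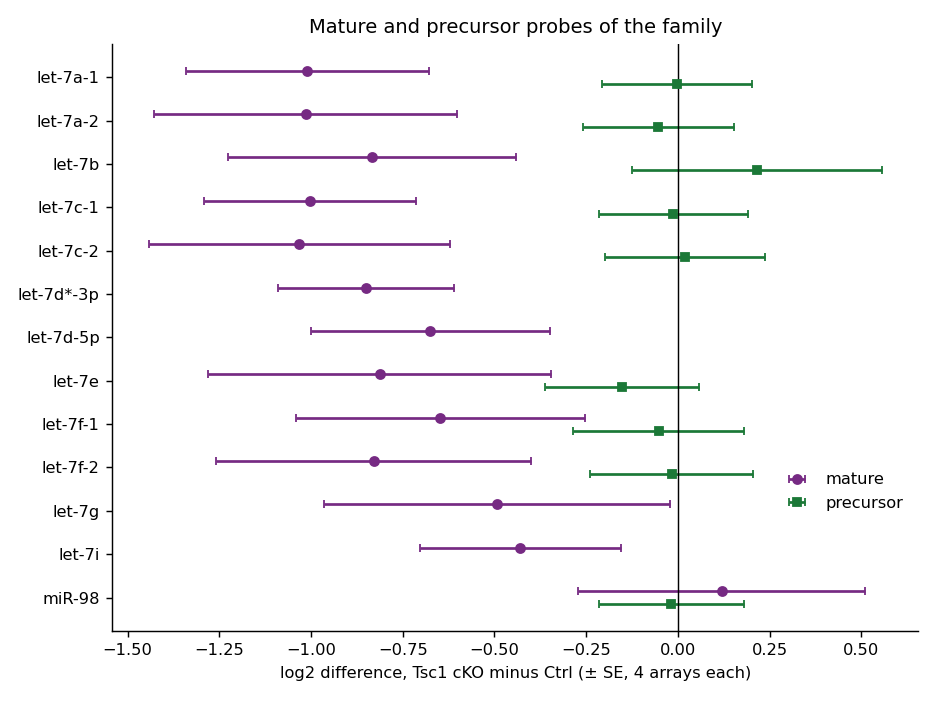
Log2 difference, Tsc1 cKO minus Ctrl, on the horizontal axis for each mature (circles) and precursor (squares) name of the family, with bars of ± 1 SE from the fit over all names (4 arrays each); let-7d, let-7g and let-7i had no precursor probe. Mature values run from -1.03 to 0.12 and precursor values from -0.15 to 0.22, and no precursor name was bright.

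The balance of both forms was taken as mature minus precursor log2 intensity of the same array, for the 9 family names among 263 matched names. It was lower in Tsc1 cKO for 8 of 9 names, with a median difference of -0.96, against 52.9% of all matched names and a median of -0.02. The 69 matched names that were bright as mature names had a median difference of -0.16, and the 5 of these in the family had -1.01. For let-7c-1 the balance was 2.64, 2.23, 3.03 and 2.08 in Tsc1 cKO 1 to 4, and 3.19, 3.95, 3.25 and 3.56 in Ctrl 1 to 4. The groups did not overlap, and the difference was -0.99 (SE 0.26, adjusted p = 0.327 by limma). For let-7c-2 it was 2.57, 2.32, 2.59 and 1.61 in Tsc1 cKO 1 to 4, and 3.46, 3.92, 2.96 and 2.97 in Ctrl 1 to 4, again with no overlap (difference -1.05, SE 0.30, adjusted p = 0.327 by limma).

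For let-7a-1 the balance was 2.52, 1.59, 2.93 and 1.75 in Tsc1 cKO 1 to 4, and 3.09, 3.38, 3.39 and 2.96 in Ctrl 1 to 4. These groups only just did not overlap, with a difference of -1.01 (SE 0.31, adjusted p = 0.327 by limma). In all, 3 of 9 family names had groups that did not overlap, against 3.04% of matched names that were lower in this way. Limma gave 5 of 9 family names at an unadjusted p under 0.05, all lower, against 5.32% of all matched names (1.14% were higher), and none at an adjusted p under 0.05 (0% of the 263). These 5 were both let-7a copies, both let-7c copies and let-7f-2, and the 3 without overlap include both let-7c copies. Copies share an identical mature strand, so neither count is one of separate miRNAs. With the precursor at background, this balance carries little beyond the mature value set against background.

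**Figure D4:**
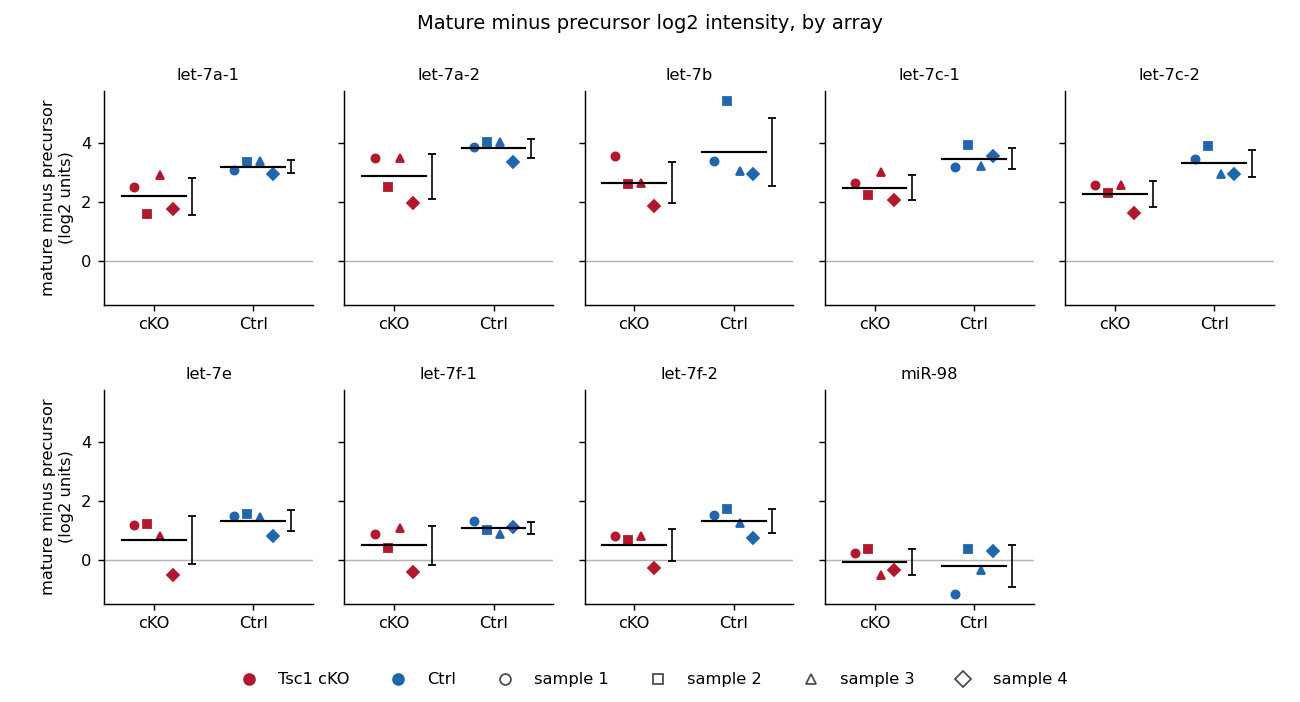
Each panel shows 1 of the 9 names with both forms, with mature minus precursor log2 intensity on the vertical axis and 1 point per array, Tsc1 cKO left of Ctrl; lines are means, bars SD (n = 4 each), marker shape the sample number. The groups do not overlap for let-7a-1, let-7c-1 and let-7c-2, and the high Ctrl 2 point of let-7b (5.45) comes from its low precursor value.

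LIN28 proteins are known to bind a GGAG motif in the terminal loop of let-7 hairpins, so the hairpin sequences were searched for the letters GGAG on the RNA strand. They occurred in 9 of 12 family hairpins (75.0%) and in 44.5% of the 1005 mouse hairpins of the RefSeq table. let-7b, let-7c-2 and miR-98 lacked them. In the let-7a-1 hairpin printed above the motif starts at base 56 and in let-7a-2 at base 54, both past the guide strand. The mature names without the letters had log2 differences of -0.83 (let-7b), -1.03 (let-7c-2) and 0.12 (miR-98). Those with them ranged from -1.01 (let-7a-1 and let-7a-2) to -0.43 (let-7i) for the guide arms, with let-7c-1 at -1.003, let-7f-2 at -0.83, let-7e at -0.81, let-7d-5p at -0.67, let-7f-1 at -0.65 and let-7g at -0.49. A match to these letters is a description of the sequence and not a binding site shown here.

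The miRNAs encoded beside let-7a-2, let-7c-1 and let-7e were read as their genomic partners: miR-100 and miR-99a, close relatives of each other, miR-125b, known for enlarging the stem cell pool when its level is raised, and miR-99b and miR-125a. All 7 mature partner names had a lower mean in Tsc1 cKO, against 64.9% of all mature names, with a median log2 difference of -0.96. Limma gave 4 of 7 at an unadjusted p under 0.05, all lower, against 3.93% of all mature names, and none at an adjusted p under 0.05. The names miR-125b-1, miR-125b-2 and miR-125b all stand for miR-125b, so the 7 names are not 7 separate miRNAs. The 4 include both miR-125b-1 and miR-125b-2. The differences were -0.82 (SE 0.36) for miR-100, -0.97 (SE 0.35) for miR-99a, -1.22 (SE 0.35) for miR-125b-1, -1.40 (SE 0.49) for miR-125b-2, -0.96 (SE 0.58) for the miR-125b name without a copy number, -0.49 (SE 0.32) for miR-99b and -0.25 (SE 0.36) for miR-125a. No partner name was bright, and in Tsc1 cKO all but miR-99b (0.64 log2 units above) lay below background. Of the 4 partner precursors, that of miR-125b-1 was bright, 2.01 log2 units above background. It stood at 17.00, 16.89, 16.64 and 16.44 in Tsc1 cKO 1 to 4, and at 16.94, 17.22, 16.55 and 16.89 in Ctrl 1 to 4, with overlapping groups and a difference of -0.16 (SE 0.21).

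Among the 86 bright names outside the family, those whose profile over the 8 arrays was closest to that of the family were miR-130a, miR-222, miR-29b-2, miR-329 and miR-15a. Likeness was the mean absolute difference from the mean of the 8 bright family names, after removal of each profile's own mean, and it was 0.19, 0.20, 0.20, 0.22 and 0.22 log2 units. The median over the 86 names was 0.39, and the family's own bright names lay between 0.077 and 0.33. The arrays share their brightness, which enters every profile. miR-15a passed the bright limit through Ctrl (1.28 log2 units above background, against 0.84 in Tsc1 cKO). miR-29b-2 lay close to that limit in Tsc1 cKO (1.00, against 1.42 in Ctrl). miR-130a, the closest, stood at 16.90, 16.99, 16.69 and 15.84 in Tsc1 cKO 1 to 4, and at 17.67, 17.89, 17.73 and 16.85 in Ctrl 1 to 4, a difference of -0.93 (SE 0.32, adjusted p = 0.69 by limma).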

How the data were processed

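miRNA levels in sorted LSK cells of 4 Tsc1 cKO and 4 Ctrl mice were read on 1-colour arrays. Per the labels, 5 µg of RNA per sample was biotin-labelled with a random octamer primer and detected with streptavidin-Alexa647. The deposited values of both tables are intensity on a linear scale, called normalized (scaled) signal in the authors' file comment, a template text. No source used here gives the scaling, background treatment or filters. A further table equalled the mature one in all 4168 cells.

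Values were taken as log2(value + 1), probes of one name were averaged (upper and lower case kept apart), and limma 3.58.1 in R 4.3.3 (lmFit and eBayes, no block) was fitted over all names of a table with Benjamini-Hochberg adjustment. It was tested on simulated data. The background was the mode of the log2 values of an array over both tables. Forms were matched by name. Copies and arms were compared with exact permutation tests (Python 3.11.15). Values per mouse were given for bright mature names, names whose groups did not overlap and the closest name outside the family, and, chosen after they were seen, for the let-7b and miR-125b-1 precursors and the let-7d arms. Every probe name of the family was counted. Precision is limited by the number of arrays. The members and lists were chosen with earlier results of these data known.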

Additional observations from a re-analysis of the deposited data

How the results depend on the processing

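The counts of names called at an adjusted p under 0.05 by limma were 0 for mature names, precursor names and the balance of both forms under every alternative that was run, and no pair of copies or arms passed. The labels state no pairing of the mice, and the main fit has no block. Same-numbered mice had correlations of their deviations from the group means of 0.10, 0.35, 0.093 and 0.33. Tsc1 cKO 2 and 4 correlated best with the Ctrl mouse of their own number. Tsc1 cKO 1 did so with Ctrl 2 (0.45) and Tsc1 cKO 3 with Ctrl 4 (0.19). Between the first and last samples, Tsc1 cKO 1 with Ctrl 4 had -0.40 and Tsc1 cKO 4 with Ctrl 2 had -0.46. Whether the mice share a batch by number was not tested. With a replicate block limma gave 0 mature names (lowest adjusted p = 0.0581) and 48 at an unadjusted p under 0.05, 10 of them in the family, against 19 and 5 without it. Samples 1-2 against 3-4 as a block gave 38 and 9. The median of the mature family stayed negative in all 20 alternatives (-1.03 to -0.32). Of the mature names other than let-7g and miR-98, all kept a negative sign in each alternative run. let-7g was 0.32 on scanner 4000B alone, and miR-98 was -0.36 in samples 3-4 alone, with a balance of both forms of -0.43.

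Precursor signs changed with small shifts, as values at background do. The median of the family and the precursors of let-7a-1, let-7c-1, let-7f-2 and miR-98 were 0.011, 0.026, 0.016, 0.011 and 0.0105 after centring on array medians, 0.030, 0.030, 0.0081, 0.047 and 0.064 after quantile normalization, 0.0074, 0.022, 0.012, 0.0074 and 0.0070 relative to background, 0.036, 0.052, 0.016, 0.044 and 0.036 with array weights (let-7f-1 1e-04), and 0.22, 0.19, 0.22, 0.24 and 0.12 on scanner 4000B alone, where let-7f-1 was 0.24, let-7a-2 0.17 and let-7e 0.012. In samples 1-2 alone let-7c-1 was 0.048, and in samples 3-4 alone let-7b was -0.086, let-7c-2 -0.012, let-7a-1 0.0013 and miR-98 0.070. Omission of 1 mouse gave -0.13 to 0.39 for mature miR-98 and -0.18 to 0.33 for its balance. For precursors it gave -0.095 to 0.060 (median), -0.14 to 0.44 (let-7b), -0.076 to 0.13 (let-7c-2), -0.086 to 0.094 (let-7a-1), -0.11 to 0.069 (let-7c-1), -0.11 to 0.081 (let-7f-2), -0.16 to 0.054 (let-7f-1), -0.10 to 0.058 (miR-98) and -0.13 to 0.027 (let-7a-2). For pairs it gave -0.46 to 0.12 (let-7d arms), -0.12 to 0.12 (let-7a copies) and -0.13 to 0.19 (let-7c copies). The cause of these shifts was not tested. Bright names alone left no family precursor, and probe rows without averaging were not run for the balance of forms, which needs 1 value per name. Signal over background limits miR-98, let-7d*-3p, let-7e, let-7f, let-7g and all family precursors.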
